A study of Mus musculus with 5 samples.

Results

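Laminins, the proteins that link them into basement membranes, and the integrins and dystroglycan that bind matrix at the cell surface were followed in mouse liver. The genes were taken by symbol from the count tables: every laminin chain (Lama, Lamb, Lamc), every integrin alpha and beta subunit (Itga, Itgb), and Nid1, Nid2, Hspg2, Agrn and Dag1. This gave 42 of the 24808 genes in the tables, made up of 11 laminin chains, 4 linkers, Dag1 and 26 integrin subunits. All livers came from C57BL/6 mice aged 16 weeks. The comparison group had received carbon tetrachloride (CCl4), a liver toxin whose repeated use scars the rodent liver, and held 3 libraries. The other group, of 2 libraries, had received CCl4 and givinostat, an inhibitor of histone deacetylases. Both groups therefore carry the CCl4 injury, and no uninjured liver was analysed here. The series design speaks of mice, and the sources used here give neither sex nor dosing schedule. Libraries are named by group and replicate number, and RNA came from whole liver.

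Laminins are trimers of an alpha, a beta and a gamma chain that polymerise into a sheet on the cell surface. Nidogens bridge that sheet to type IV collagen, and the heparan sulfate proteoglycans perlecan (Hspg2) and agrin (Agrn) tie it further to growth factors and receptors. Integrins are pairs of an alpha and a beta subunit that read laminin, collagen, fibronectin or cell surface ligands and connect them to the actin cytoskeleton, while dystroglycan binds laminin and agrin through its sugar chains. In healthy liver, complete basement membranes lie under bile ducts and larger vessels and not along the sinusoids, and laminin deposition along sinusoids is a known feature of fibrosis.

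Libraries held 18634801 to 21773867 counts, and the 42 genes took 0.0689 to 0.0906% of the gene counts. The hepatocyte marker albumin took 7.02 to 8.15%, and all 10 hepatocyte markers were detected in every library. In a principal component analysis over all tested genes, CCl4 replicate 1 stood at the opposite end of the first component from CCl4 replicates 2 and 3. The labels do not tie each library to an animal of its own, so p-values measure the spread between these libraries, which may be in part technical.

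With givinostat, no gene of this set passed the test over all genes, and most lay slightly lower. By the quasi-likelihood test of edgeR, with p-values adjusted by Benjamini-Hochberg over 13590 genes, 0 members were higher (0.00736% of all genes tested) and 0 were lower (0% of all genes tested). Of the 42 genes, 36 passed the filter on low counts. At an unadjusted p under 0.05, 3 members were lower, Nid2, Itgax and Itga9 (8.33% of the 36, against 3.93% of all genes), and 0 were higher (3.52% of all genes). DESeq2 called Nid2 lower (0.581% of all genes were called lower) and 0 members higher (0.508% of all genes). The median log2 fold change over the 36 genes was -0.20, where that over all tested genes was -0.02, and 26 of the 36 had a lower fitted value (53.8% of all genes). The approximate 95% interval of the fold change excluded a 2-fold difference in either direction for 25 of the 36 genes, against 69.9% of all genes.

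**Figure D1:**
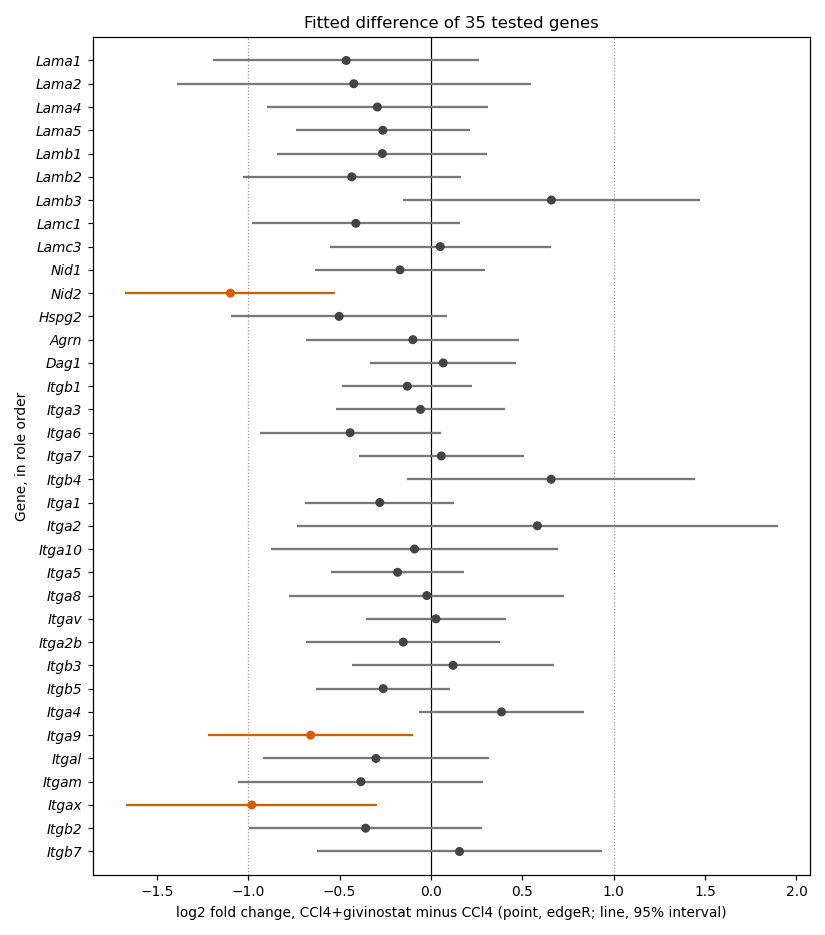
Fitted log2 fold change (x axis, CCl4+givinostat minus CCl4) of 35 of the 36 tested genes in role order, with points for edgeR estimates and lines for approximate 95% intervals; dotted lines mark a 2-fold difference. Only the intervals of Nid2, Itga9 and Itgax, drawn in orange, lie wholly below 0, and none lies wholly above it.

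CPM values, read counts scaled to a common TMM library size, were divided by the length of all exons of a gene to compare levels between genes. On this scale the beta1 subunit gene Itgb1, the shared partner of most laminin and collagen receptors, was the most abundant member at 44.0 CPM per kilobase over the 5 libraries. It was followed by Itgb5 at 21.2, Dag1 at 11.9, Nid1 at 8.42, Itga5 at 8.31, Agrn at 6.67 and Itgb2 at 4.95 CPM per kilobase. The ranges over libraries of Nid1 (6.23 to 9.74), Itga5 (7.64 to 9.68) and Agrn (5.43 to 9.57 CPM per kilobase) overlapped, so their order is not resolved. The most abundant laminin chain was Lamc1 at 3.73 CPM per kilobase. Of the 42 genes, 6 did not pass the low-count filter. These were Lama3 with 4 to 12 counts a library, Itga11 with 1 to 7, Itgb6 with 4 to 10, Itgb8 with 1 to 9, Itgad with 0 to 1 and Itgae with 0 to 18.

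**Figure D2:**
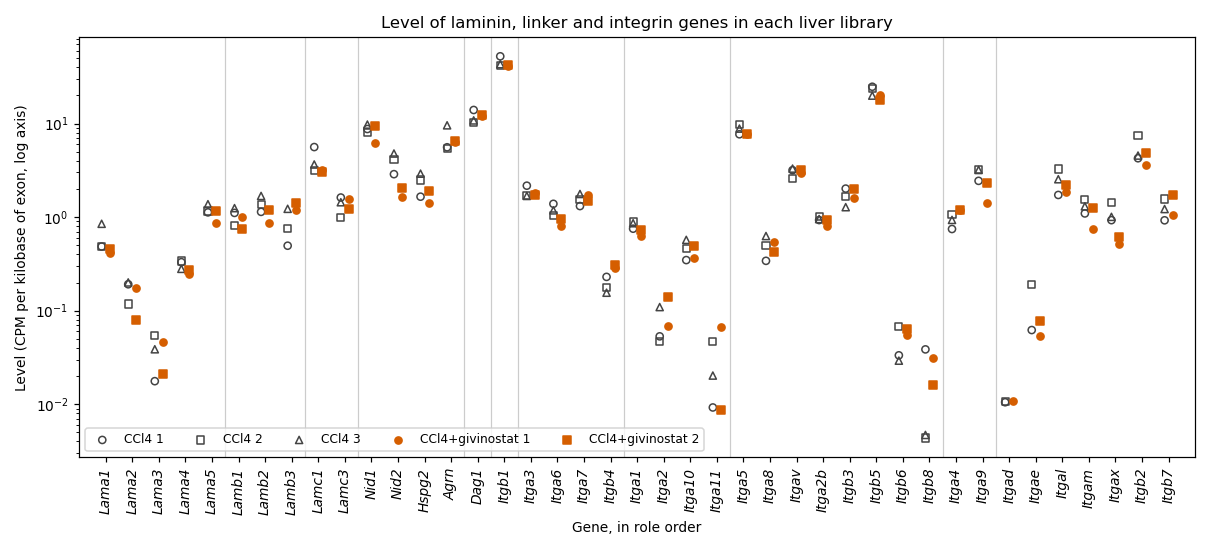
Level of 41 of the 42 genes (y axis, CPM per kilobase of exon, log axis) in role order, with open grey symbols for CCl4 replicates 1 (circle), 2 (square) and 3 (triangle) and orange symbols for CCl4+givinostat replicates 1 (circle) and 2 (square); counts of 0 in Itgad and Itgae are not drawn. Itgb1 and Itgb5 stand above all other genes, and the groups overlap for most genes.

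Among laminin alpha chains, all 4 tested members had lower fitted values with givinostat, and none passed a threshold. Lama5, the alpha chain of most adult basement membranes, measured 12.8, 13.2 and 15.6 CPM under CCl4 alone (replicates 1, 2 and 3), against 9.78 and 13.3 CPM under givinostat (replicates 1 and 2). The groups overlapped, with givinostat replicate 2 inside the CCl4 range (log2 fold change -0.26 ± 0.21, SE; edgeR adjusted p = 0.870). Lama1, best known as the alpha chain of early embryonic basement membranes, was at 4.69, 4.67 and 8.21 CPM under CCl4 alone, against 4.03 and 4.44 CPM under givinostat. Both givinostat values lay below all CCl4 values, but CCl4 replicate 3 stood well above the other CCl4 libraries. The Lama1 log2 fold change was -0.46 ± 0.32 (SE; edgeR adjusted p = 0.856), and -0.13 without CCl4 replicate 3. Lama4, an alpha chain of endothelial basement membranes, and Lama2, the alpha chain of muscle and nerve, had log2 fold changes of -0.29 and -0.42, and that of Lama2 ran from -1.09 to 0.04 with a library left out. Lama3, an epithelial alpha chain, stayed at 0.190 to 0.577 CPM.

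Lama5 made up 49.4 to 58.5% of the summed alpha chain level per kilobase in every library, Lama1 22.4 to 30.9% and Lama4 10.2 to 15.7%. With the longest transcript in place of all exons, Lama4 (0.585) and Lama1 (0.547 CPM per kilobase) changed places, while Lama5 stayed first at 1.14.

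The fitted values of the beta chains differed in sign, and none passed a threshold. Lamb2, a beta chain of kidney, synaptic and vessel basement membranes, was at 6.92, 8.37 and 10.2 CPM under CCl4 alone, against 5.26 and 7.32 CPM under givinostat, overlapping in givinostat replicate 2 (log2 fold change -0.43 ± 0.26, SE; edgeR adjusted p = 0.823). Lamb3, a beta chain of epithelial basement membranes, was at 3.27, 5.0 and 8.11 CPM under CCl4 alone, against 7.91 and 9.29 CPM under givinostat. CCl4 replicate 3 lay between the givinostat libraries, and CCl4 replicate 1 was lowest. Its log2 fold change was the highest of the set with that of Itgb4, at 0.66 ± 0.35 (SE; edgeR adjusted p = 0.793). Lamb1, the common beta chain, had a log2 fold change of -0.27 ± 0.25 (SE).

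As a share of the summed beta chain level per kilobase, Lamb3 took 18.0, 25.8 and 29.5% in the CCl4 libraries and 39.1 and 41.8% in the givinostat libraries, and Lamb2 took 41.5, 46.8 and 40.5% against 28.2 and 35.8%. Neither share overlapped between groups. These shares were not tested, and the summed beta chain level itself overlapped, at 2.74 to 4.16 CPM per kilobase with CCl4 and 3.06 and 3.36 with givinostat. Between the beta chains the order of levels depends on the length used. Lamb2 led with all exons (1.25 CPM per kilobase) and Lamb1 with the longest transcript (1.68).

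Lamc1, the gamma chain of nearly all laminins, carried 62.7 to 74.3% of the summed gamma chain level in every library. Its share was 74.3, 70.2 and 67.7% under CCl4 alone, against 62.7 and 67.6% under givinostat, narrowly without overlap. The Lamc3 share was higher in both givinostat libraries than in any CCl4 library. These gamma chain shares were not tested. Lamc1 was at 46.4, 26.1 and 30.2 CPM under CCl4 alone, against 26.6 and 24.8 CPM under givinostat. CCl4 replicate 1 alone was high, and the other 4 libraries lay within 24.8 to 30.2 CPM. The Lamc1 log2 fold change was -0.41 ± 0.25 (SE; edgeR adjusted p = 0.826), and -0.13 without CCl4 replicate 1. Lamc3, a gamma chain known from nerve and vascular tissue, was at 9.86, 6.01 and 8.78 CPM under CCl4 alone, against 9.58 and 7.45 CPM under givinostat, and both givinostat values fell inside the CCl4 range (log2 fold change 0.05 ± 0.26, SE).

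**Figure D3:**
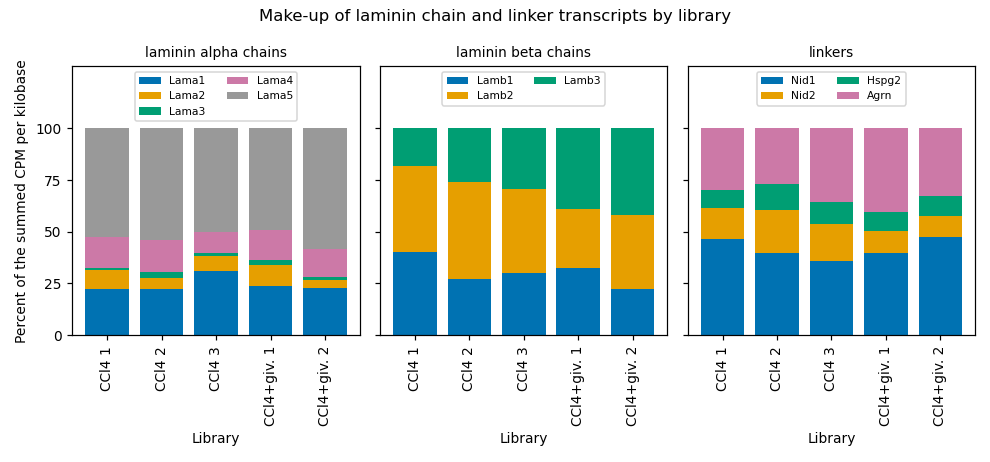
Share (y axis, percent of the summed CPM per kilobase) of each alpha and beta laminin chain and of each linker in the 5 libraries (x axis; CCl4+giv. stands for CCl4+givinostat). The Lamb3 share is higher (39.1 and 41.8%, against 18.0 to 29.5%) and the Nid2 share of the linkers lower (10.5 and 10.3%, against 15.3 to 20.7%) in the givinostat libraries.

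Nid2 gave the smallest p-value of the set. Nid2 (chromosome 14, 19751265 to 19811787, plus strand, GRCm38) encodes nidogen 2, which like nidogen 1 bridges laminin and type IV collagen. It had 314, 446 and 476 counts, or 14.9, 21.5 and 24.7 CPM, under CCl4 alone, against 172 and 235 counts, or 8.45 and 10.5 CPM, under givinostat. All CCl4 values lay above both givinostat values. The means were 20.4 ± 5.02 CPM (SD, n = 3) and 9.50 ± 1.48 CPM (SD, n = 2). The log2 fold change was -1.10 ± 0.25 (SE; approximate 95% interval -1.67 to -0.52; unadjusted p = 0.00221 and adjusted p = 0.295 by edgeR), and DESeq2 gave an adjusted p of 0.0146. Without CCl4 replicate 1 edgeR also called Nid2 (log2 fold change -1.28, adjusted p = 0.0101). With any other library left out it did not, at log2 fold changes of -0.93 to -1.27. By an exact two-sided permutation test over the 10 assignments of the libraries p was 0.1, the smallest these can give.

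Nid1, the paralog with the same role, overlapped between groups. It measured 60.7, 55.3 and 67.6 CPM under CCl4 alone, against 43.3 and 65.5 CPM under givinostat (log2 fold change -0.17 ± 0.20, SE; edgeR adjusted p = 0.939). Within the nidogen pair, Nid2 took 24.8, 34.2 and 32.9% of the level per kilobase with CCl4 and 20.8 and 17.8% with givinostat. The log2 ratio of Nid2 to Nid1 was -1.19 ± 0.36 (SD, n = 3) with CCl4 and -2.07 ± 0.20 (SD, n = 2) with givinostat, with an exact two-sided permutation p of 0.2.

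Perlecan and agrin, the proteoglycan linkers, overlapped between groups, and Hspg2 is given although it was singled out after its values were seen. It was at 23.6, 35.6 and 41.7 CPM under CCl4 alone, against 20.2 and 27.3 CPM under givinostat, so that only CCl4 replicate 1 fell among the givinostat values (log2 fold change -0.50 ± 0.26, SE; edgeR adjusted p = 0.770). Agrn was at 51.8, 50.4 and 88.8 CPM under CCl4 alone, against 58.8 and 60.0 CPM under givinostat. CCl4 replicate 3 was the high library for Agrn, and the fitted difference turned from -0.10 to 0.23 without it.

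**Figure D4:**
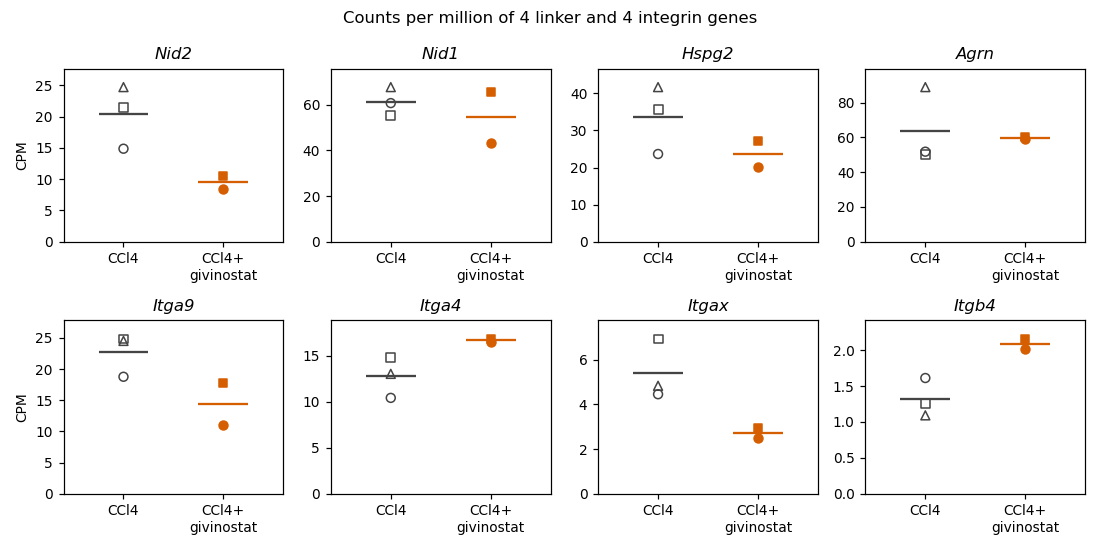
CPM (y axis, from 0) of Nid2, Nid1, Hspg2 and Agrn (top) and Itga9, Itga4, Itgax and Itgb4 (bottom) in CCl4 (grey, open; replicate 1 circle, 2 square, 3 triangle) and CCl4+givinostat (orange; replicate 1 circle, 2 square) libraries, with lines for group means. The groups are apart for Nid2 (14.9 to 24.7 against 8.45 and 10.5 CPM), Itga9, Itga4, Itgax and Itgb4, and overlap for Nid1, Hspg2 and Agrn.

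Dag1, which encodes both subunits of dystroglycan, was at 88.7, 64.8 and 68.6 CPM under CCl4 alone, against 76.1 and 79.1 CPM under givinostat. Both givinostat values lay within the CCl4 range. Its fitted difference was 0.07 ± 0.17 (log2, SE), with an approximate 95% interval of -0.33 to 0.47 (edgeR adjusted p = 0.981). Around dystroglycan, 0 of 10 tested complex genes and 0 of 16 tested glycosylation enzymes were at an unadjusted edgeR p under 0.05. Of all genes tested, 7.45% were at such a p. The median log2 fold changes were -0.06 for the complex and 0.10 for the enzymes. Dtnb (dystrobrevin beta) had the smallest p of the complex, with a log2 fold change of 0.26 ± 0.15 (SE), and Pomgnt2, an enzyme that extends the O-mannose sugars, had the smallest p of the enzymes (-0.46 ± 0.35, SE).

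The beta1 integrin gene Itgb1 (chromosome 8, 128685654 to 128733200, plus strand) was at 213, 169 and 176 CPM under CCl4 alone, against 167 and 173 CPM under givinostat. CCl4 replicate 1 stood above the other 4 libraries, which lay between 167 and 176 CPM. Its log2 fold change was -0.13 ± 0.15 (SE; approximate 95% interval -0.48 to 0.23; edgeR adjusted p = 0.939).

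Of the laminin-binding integrins, Itga3 and Itga7 had the highest levels per kilobase of exon. Itga3, an epithelial laminin receptor subunit, was at 12.4, 9.67 and 9.61 CPM under CCl4 alone, against 10.4 and 9.92 CPM under givinostat (log2 fold change -0.06 ± 0.20, SE). Itga7, best known as the laminin receptor subunit of muscle, was at 10.6, 12.5 and 14.3 CPM under CCl4 alone, against 13.9 and 12.1 CPM under givinostat (0.06 ± 0.20, SE). Both genes overlapped fully between groups. With the longest transcript the order was Itga7 (3.15), Itga6 (2.25) and Itga3 (2.14 CPM per kilobase).

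Itga6 and Itgb4, whose products pair in the hemidesmosomes of epithelia, are given here although they were singled out after their values were seen. Itga6 was at 12.5, 9.33 and 10.7 CPM under CCl4 alone, against 7.22 and 8.71 CPM under givinostat, below all CCl4 values. Itgb4 was at 1.61, 1.25 and 1.09 CPM under CCl4 alone, against 2.01 and 2.15 CPM under givinostat, above all CCl4 values. The fitted values of the partners had opposite signs, with log2 fold changes of -0.44 ± 0.22 and 0.66 ± 0.34 (SE), and neither passed (edgeR adjusted p = 0.748 and 0.777). The difference between the partners was not tested. Over the whole set, 7 of 36 genes were lower without overlap between groups (19.4%, against 11.7% of all genes tested). Itgb4 and Itga4 were the 2 of 36 that were higher without overlap (5.56%, against 11.7% of all genes tested).

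Collagen-binding integrins were low per kilobase of exon and showed no difference past a threshold. The level of Itga1 depended on the length used, at 0.773 CPM per kilobase with all exons and 1.31 with the longest transcript. Itga1, a collagen and laminin receptor subunit, was at 14.0, 16.5 and 16.0 CPM under CCl4 alone, against 11.8 and 13.7 CPM under givinostat. The groups were narrowly apart, and the log2 fold change was -0.28 ± 0.18 (SE; edgeR adjusted p = 0.835). Itga10, known as a collagen receptor subunit of cartilage, was at 1.80, 2.41 and 2.96 CPM under CCl4 alone, against 1.92 and 2.56 CPM under givinostat, with both givinostat values inside the CCl4 range. Another GENCODE gene model covers 33.5% of the exon length of Itga10 on its strand, so part of its reads could belong to either. Itga2, a subunit of platelets and epithelia, had 7 to 22 counts a library (log2 fold change 0.58 ± 0.57, SE; -0.01 to 0.99 with a library left out), and Itga11, the collagen receptor subunit of fibroblasts, had 1, 5 and 2 counts with CCl4 and 7 and 1 with givinostat, too few for a comparison.

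The receptors that read the RGD motif of fibronectin and vitronectin were led by Itgb5, the vitronectin receptor subunit that pairs with alpha v, and Itga5, the fibronectin receptor subunit. Itgb5 was at 87.8, 83.8 and 70.6 CPM under CCl4 alone, against 72 and 62.8 CPM under givinostat, overlapping in CCl4 replicate 3 (log2 fold change -0.26 ± 0.16, SE; edgeR adjusted p = 0.827). Itga5 was at 37.9, 47.7 and 43.5 CPM under CCl4 alone, against 37.7 and 38.2 CPM under givinostat, overlapping in CCl4 replicate 1 (-0.18 ± 0.16, SE; edgeR adjusted p = 0.887). The remaining tested members of this class, Itgav, Itga8, Itgb3 and the platelet subunit Itga2b, had log2 fold changes between -0.15 and 0.12. For Itgav, which with its beta partners can release active TGF-beta, the approximate 95% interval was -0.35 to 0.41. Itgb6 and Itgb8, further alpha v partners, stayed at 0.0481 to 0.481 CPM.

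The fitted values of the related subunits Itga4 and Itga9 had opposite signs, and the difference between the genes was not tested. Itga9 (chromosome 9, 118606690 to 118901003, plus strand), whose product binds tenascin-C and osteopontin, was at 18.8, 24.8 and 24.5 CPM under CCl4 alone, against 11 and 17.8 CPM under givinostat. All CCl4 values lay above both givinostat values, and the givinostat libraries differed from each other. The log2 fold change was -0.66 ± 0.24 (SE; unadjusted p = 0.0269 and adjusted p = 0.568 by edgeR; adjusted p = 0.417 by DESeq2), and it was -0.35 without givinostat replicate 1 and -1.05 without givinostat replicate 2. Itga4, whose product binds VCAM-1 and fibronectin on leukocytes, was at 10.4, 14.9 and 13.0 CPM under CCl4 alone, against 16.6 and 16.8 CPM under givinostat. Both givinostat libraries were above all CCl4 libraries (log2 fold change 0.39 ± 0.20, SE; edgeR adjusted p = 0.764).

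Itgb2 encodes the beta2 subunit that pairs with the products of Itgal, Itgam, Itgax and Itgad. It was at 13.0, 22.8 and 13.9 CPM under CCl4 alone, against 11.1 and 14.7 CPM under givinostat, with CCl4 replicate 2 above all other libraries (log2 fold change -0.36 ± 0.28, SE; edgeR adjusted p = 0.869). Itgal, its partner in the ICAM-binding receptor of lymphocytes, was at 11.3, 21.4 and 16.7 CPM under CCl4 alone, against 12.1 and 14.6 CPM under givinostat (-0.30 ± 0.27, SE), again highest in CCl4 replicate 2. Without that library the log2 fold changes were -0.056 for Itgb2 and -0.066 for Itgal. Neutrophil markers summed to 23.0, 88.5 and 91.1 CPM under CCl4 alone, against 85.1 and 82.2 CPM under givinostat, so that CCl4 replicate 1 stood apart. T and NK cell markers summed to 7.35, 12.7 and 4.52 CPM, against 4.82 and 4.58 CPM, and were highest in CCl4 replicate 2, as were the summed Kupffer, monocyte and macrophage, dendritic, platelet and endothelial markers. The part of these cell types in the leukocyte integrin values was not tested. In bulk liver, fewer cells of a type and less RNA per cell cannot be told apart.

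Itgax (chromosome 7, 128129547 to 128150657, plus strand) encodes CD11c, the subunit used to mark dendritic cells and some macrophages. It had 94, 144 and 93 counts, or 4.45, 6.93 and 4.83 CPM, with CCl4 and 51 and 66 counts, or 2.51 and 2.96 CPM, with givinostat. All CCl4 values lay above both givinostat values. The log2 fold change was -0.98 ± 0.30 (SE; approximate 95% interval -1.67 to -0.29; unadjusted p = 0.0108 and adjusted p = 0.468 by edgeR; adjusted p = 0.213 by DESeq2). The neighbouring gene Itgam, also singled out after its values were seen, which encodes the CD11b subunit of myeloid cells, was at 5.50, 7.70 and 6.55 CPM under CCl4 alone, against 3.78 and 6.29 CPM under givinostat (-0.38 ± 0.29, SE; -0.80 to -0.065 with a library left out). It overlapped between groups, and another gene model covers 68.7% of its exon length on its strand, so part of its reads could belong to either. Itgax, Itgam and Itgad are close paralogs, and reads shared between them could be lost or split. Itgb7, the gut-homing beta subunit, had a log2 fold change of 0.16 ± 0.34 (SE), and Itgae and Itgad were at or near 0.

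Other dendritic cell markers were read beside Itgax. Zbtb46, a transcription factor of conventional dendritic cells, was at 2.08 to 2.56 CPM under CCl4 alone, against 2.85 and 2.96 CPM under givinostat, and the MHC class II gene H2-Ab1 had a log2 fold change of -0.18 ± 0.24 (SE). Of 9 tested dendritic cell markers, Itgax among them, 6 had a lower fitted value. Over all 10 listed genes the summed level was 74.2 to 133 CPM under CCl4 alone, against 90.3 and 90.8 CPM under givinostat. Of 10 Kupffer cell markers all were fitted lower, with a median log2 fold change of -0.44 and 652 to 1025 summed CPM against 578 and 683. Of 10 monocyte and macrophage markers 7 were fitted lower, with 225 to 328 summed CPM against 255 and 270. Adgre1, a general macrophage marker, differed by -0.58 ± 0.23 (log2, SE), with an edgeR adjusted p of 0.63. The part of these cell types in the Itgax difference was not tested.

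RefSeq promoters were at hand for 27 of the 42 genes. The bases before the start of Itgb1, Itgax and Itgam are shown because they set the most abundant receptor gene beside adjacent leukocyte integrin genes, of which Itgax was lower at an unadjusted p under 0.05. The windows cover up to 250 bases before the RefSeq start on GRCm38.p6, plus strand, and stop before any annotated exon: chr8:128685404-128685653 for Itgb1, chr7:128129300-128129546 for Itgax and chr7:128062390-128062639 for Itgam. Capitals mark matches, on either strand, to the letters GGGCGG, bound by Sp1-type factors, the promoter element TATAAA, the myeloid factor core GAGGAA and the Fos and Jun element TGANTCA.
Itgb1: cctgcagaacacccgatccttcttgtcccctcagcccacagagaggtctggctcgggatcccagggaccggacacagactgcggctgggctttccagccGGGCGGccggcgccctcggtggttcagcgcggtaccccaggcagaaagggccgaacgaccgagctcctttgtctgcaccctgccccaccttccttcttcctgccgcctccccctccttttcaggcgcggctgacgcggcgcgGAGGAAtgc
Itgax: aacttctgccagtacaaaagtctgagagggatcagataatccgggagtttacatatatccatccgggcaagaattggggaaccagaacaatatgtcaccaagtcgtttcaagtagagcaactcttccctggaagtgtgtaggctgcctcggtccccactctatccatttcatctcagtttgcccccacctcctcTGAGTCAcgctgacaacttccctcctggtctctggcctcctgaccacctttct
Itgam: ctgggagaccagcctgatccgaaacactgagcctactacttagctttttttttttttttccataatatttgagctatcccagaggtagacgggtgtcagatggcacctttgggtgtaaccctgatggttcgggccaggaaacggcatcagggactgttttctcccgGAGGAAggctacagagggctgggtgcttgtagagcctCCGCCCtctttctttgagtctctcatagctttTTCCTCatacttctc
GC content over the 250 bases was 68% for Itgb1, 50% for Itgax and 49.6% for Itgam, against a median of 52.4% over 32851 promoters. Itgb1 held 1 match to GGGCGG and 1 to GAGGAA, Itgax 1 match to TGANTCA, and Itgam 1 match to GGGCGG and 2 matches to GAGGAA. No TATAAA match was found in the windows of the 27 genes, where 12.4% of all promoters hold it. GGGCGG was found in 12 of the 27 (32.7% of all promoters), GAGGAA in 14 (23.3%) and TGANTCA in 1 (6.75%). For every motif, a gene was counted if any of its promoters matched, while the shares are over single promoters. The counts and shares therefore have unlike units and cannot be compared directly. The motifs do not overlap each other in the windows shown, and a match describes letters and not a bound site.

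The genes moved unevenly between libraries. Givinostat replicate 1 was the lowest of the 5 libraries for 16 of the 36 tested genes (44.4%, against 19.7% of all genes tested) and the highest for 0 (against 20.6%). CCl4 replicate 3 was the highest for 13 (36.1%, against 22% of all genes) and CCl4 replicate 2 for 10 (27.8%, against 16.9%). Endothelial markers, from the cells that make much of the vessel basement membrane, were also lowest in givinostat replicate 1. So were the summed mesothelial (7.66 CPM) and Kupffer (578 CPM) markers, while the cholangiocyte and activated stellate sums were lowest in givinostat replicate 2. The part of any of these cell types in the members' library values was not tested. The summed level of 10 sinusoidal endothelial markers was 291, 485 and 412 CPM under CCl4 alone, against 217 and 458 CPM under givinostat, and that of 10 vascular endothelial markers was 202, 268 and 226 CPM against 141 and 218 CPM. All 10 vascular endothelial markers had a lower fitted value and 0 were at an unadjusted edgeR p under 0.05 (7.45% of all genes tested). Cdh5, the endothelial cadherin, had the smallest p of that list, with a log2 fold change of -0.87 ± 0.40 (SE).

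Markers of other matrix-making cells were followed beside the linkers. The summed level of mesothelial markers did not overlap between groups, at 31.8, 20.4 and 33.6 summed CPM over 10 genes under CCl4 alone, against 7.66 and 13.4 CPM under givinostat. Msln, the mesothelin gene, had 72, 24 and 54 counts under CCl4 alone, against 0 and 1 under givinostat. Podxl, which endothelial cells also express, supplied 4.47 and 10.95 CPM of the givinostat sums, against 11.2 to 11.5 CPM of the CCl4 sums. All 10 mesothelial markers were fitted lower, by a median of -2.76 on the log2 scale. At an unadjusted edgeR p under 0.05, 8 of them were lower (3.93% of all genes tested). Cholangiocyte markers were at 163, 182 and 235 summed CPM under CCl4 alone, against 144 and 113 CPM under givinostat. Spp1, which stands also on the list of integrin ligands, supplied most of these sums. It was at 108, 131 and 179 CPM under CCl4 alone, against 106 and 69.8 CPM under givinostat. Of 8 tested cholangiocyte markers, 6 were fitted lower and 2 higher. At an unadjusted edgeR p under 0.05, 4 of the 8 were lower (3.93% of all genes tested). DESeq2 called 2 of them lower, where it called 0.581% of all genes lower. These were Prom1 (edgeR log2 fold change -1.44 ± 0.29, SE) and Pkhd1 (-0.95 ± 0.21, SE). The general stellate cell list was at 255 to 269 CPM against 276 and 286 CPM, and activated stellate cell genes were at 152, 152 and 263 CPM against 149 and 110 CPM, with all 10 fitted lower. The cholangiocyte and activated stellate sums were thus also lower without overlap between groups, and the general stellate sum was higher without overlap. The part of any of these cell types in the Nid2 and laminin values was not tested.

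**Figure D5:**
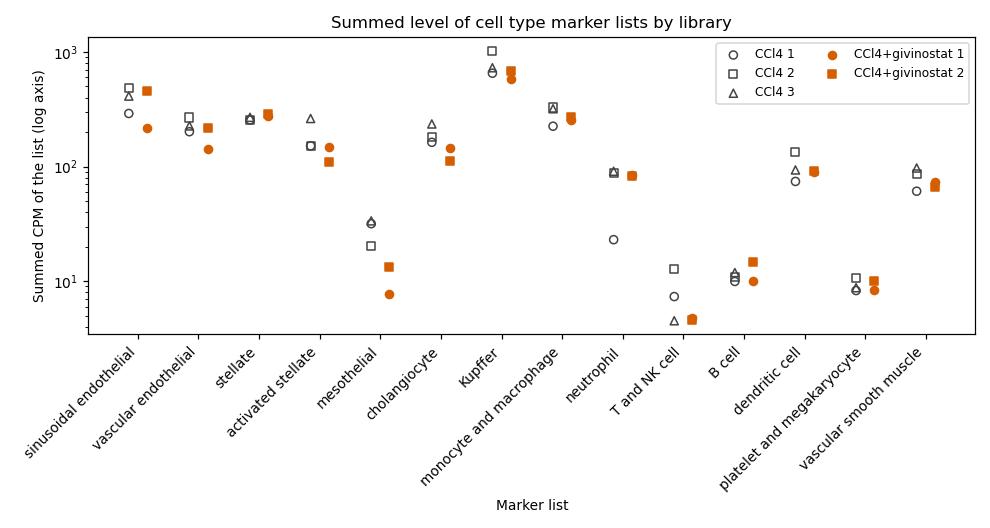
Summed CPM (y axis, log axis) of 14 marker lists (x axis) in CCl4 (open grey; replicate 1 circle, 2 square, 3 triangle) and CCl4+givinostat (orange; replicate 1 circle, 2 square) libraries; Itgax also stands on the dendritic cell list and Itga2b on the platelet list. Mesothelial markers are lower in both givinostat libraries (7.66 and 13.4 against 20.4 to 33.6 CPM), as are cholangiocyte and activated stellate markers, while stellate markers are higher in both. Endothelial markers are lowest in givinostat replicate 1. The hepatocyte list is not drawn.

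Other genes of the same matrix were read from lists of the pathway. Of 7 tested network and sheet collagens of basement membranes, 5 had a lower fitted value. Of these, 3 were at an unadjusted edgeR p under 0.05 (3.93% of all genes tested were lower at this p). These 3 were Col15a1 (log2 fold change -0.87 ± 0.21), Col4a1 (-0.55 ± 0.19) and Col4a2 (-0.45 ± 0.16, SE), the last pair being the ubiquitous type IV collagen chains that nidogens bind. Each was lower in both givinostat libraries than in any CCl4 library, and DESeq2 called Col15a1. Over all genes tested, 11.7% were lower without overlap, and DESeq2 called 0.581% lower. Of 15 tested genes of basement membrane assembly and crosslinking, 12 had a lower fitted value (median -0.24), led by Frem1 at -1.92 ± 0.53 (SE) on under 1 CPM in every library, Loxl1, a lysyl oxidase-like enzyme (-1.05 ± 0.38), and Smoc2 (-0.71 ± 0.29, SE).

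Ligands of these integrins outside the basement membrane had a median log2 fold change of -0.27, with 14 of 17 lower. At an unadjusted edgeR p under 0.05, 4 were lower and 1 higher (3.93% and 3.52% of all genes tested). Tnc, which stands like Loxl1 also on the activated stellate cell list and is the tenascin-C gene, encoding a ligand of the Itga9 product, was at 2.70, 2.98 and 3.22 CPM under CCl4 alone, against 0.93 and 1.44 CPM under givinostat (-1.32 ± 0.34, SE; edgeR adjusted p = 0.37). Npnt, which encodes nephronectin, the ligand of the Itga8 product, was the higher one, at 0.90, 1.59 and 1.92 CPM under CCl4 alone, against 2.60 and 4.18 CPM under givinostat (1.21 ± 0.40, SE; edgeR adjusted p = 0.51). Itga8 itself was at 2.51, 3.66 and 4.62 CPM under CCl4 alone, against 3.98 and 3.10 CPM under givinostat, with full overlap. Of 26 intracellular adaptors that tie integrins to actin, 18 had a lower fitted value (median -0.11). Tln2, a talin, was the 1 adaptor at an unadjusted edgeR p under 0.05 (log2 fold change 0.64 ± 0.26, SE). Of all genes tested, 7.45% were at such a p.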

How the data were processed

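Livers were flash frozen and their total RNA, taken with Trizol, went into TruSeq RNA libraries, per the labels' protocols. The authors deposited 1 table per library of raw read counts per gene symbol, with 24834 rows, of which 26 were named by a date instead of a gene and were left out (0.144 to 0.169% of counts). Bowtie 0.12.2 and the builds mm8 and mm10 appear in the submitters' processing notes, with no role stated. Which program and annotation did the counting, and whether it used strand, is not given in the sources used here, so sense and antisense reads cannot be told apart.

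Low-count genes were removed with filterByExpr (default settings) and the rest tested with edgeR 4.0.16 (R 4.3.3), TMM scaling and a quasi-likelihood model with treatment as its only term over all 5 libraries (3 residual degrees of freedom). P-values were adjusted over all tested genes by Benjamini-Hochberg, with a threshold of 0.05. Each SE was taken as the size of the log2 fold change over the root of its F statistic, and the approximate 95% intervals use them with the t distribution of the fit. Permutation tests of single genes used log2 CPM with a prior count of 2. That of the nidogen ratio used the log2 ratio of CPM per kilobase, with no prior count. The procedure was also run on simulated counts. The outcome of that run is not given here, and no result above rests on it. Every pair of libraries differed by more than sampling noise.

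Gene models and lengths come from GENCODE M21 on GRCm38 and matched 42 of 42 symbols. The members and lists were chosen with earlier results of these data known. Members were named with all values if at an unadjusted p under 0.05 or among the 2 highest per kilobase of their role list, and others by ranges. The values of 1 tested member are not reported here; it stays in the counts and sums. Of each further list, up to 3 genes with the smallest p could be named. Podxl and Spp1 were also named for their part in a summed level. Alternatives were DESeq2 1.42.0, RLE scaling, other count filters, each library left out, the replicate number as a block, an adjusted p of 0.1 and the longest transcript as length.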

Additional observations from a re-analysis of the deposited data

How the results depend on the processing

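Over all genes, edgeR called 1 gene higher and 0 lower. It called 23 and 15 with no low-count filter, 0 and 0 under a filter of 10 counts in each library of at least 1 group, 2 and 1 at an adjusted p of 0.1, and 68 and 77 with a replicate block, while DESeq2 called 69 and 79. With a library left out the counts ran from 0 to 119 higher and 0 to 116 lower, the top values without CCl4 replicate 1. Where a givinostat library was left out, the lone remaining one was assumed to vary like the CCl4 libraries. Among laminins, linkers and integrins, 0 were called higher under each alternative tried, and 1, Nid2, was called lower by DESeq2, as it was without CCl4 replicate 1 (leave-one-out range 0 to 1). At an unadjusted p under 0.05, 1 to 6 members were lower and 0 to 1 higher with a library left out, 6 without CCl4 replicate 1 and 1 without givinostat replicate 1. The 1 higher was Lamb3, without CCl4 replicate 3, and 1 was higher with the block. Lamb3 was at 1.08 (log2) with the block, 1.06 without CCl4 replicate 3 and 0.40 without CCl4 replicate 1. The members' median stayed between -0.14 and -0.23. Whether same-numbered libraries are paired is not stated in the labels. In the block fit, CCl4 replicate 3 has no same-numbered givinostat library, so it does not inform the treatment difference. That fit also has fewer residual degrees of freedom than the main fit. Deviations of same-numbered libraries from their group means correlated at -0.15 and -0.08. With 2 givinostat libraries, their deviations mirror each other, so these correlations cannot decide whether the numbers pair the libraries.

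Of 36 tested members, 22 kept their sign with each library left out, 19 lower and 3 higher. None of the other 14 was called. Among them the log2 fold change ranged with a library left out from -1.09 to 0.04 for Lama2, -0.01 to 0.99 for Itga2, -0.24 to 0.46 for Itgb7, -0.14 to 0.22 for Lamc3, -0.50 to 0.10 for Nid1, -0.24 to 0.23 for Agrn, -0.02 to 0.22 for Dag1, -0.12 to 0.07 for Itga3, -0.05 to 0.17 for Itga7 and -0.32 to 0.10 for Itga10. Without CCl4 replicate 2, Lamc3 was at -0.13. Without CCl4 replicate 3, Itga10 was at 0.10. Without givinostat replicate 1, Itga7 was at -0.04. Without CCl4 replicate 1, Itga3 was at 0.073 and Itga7 at -0.048. Without CCl4 replicate 2, Dag1 was at -0.021. With the block, in which CCl4 replicate 3 stood alone, Agrn was at 0.22 and Itga10 at 0.089. Without CCl4 replicate 3, Agrn was at 0.23. The cause of the changes with a library left out was not tested. Depth limits Lama3, Itga11, Itgb6, Itgb8, Itgad and Itgae, with at most 18 counts in a library.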
